A study of Mus musculus with 31 samples.

Results

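Transcripts of 5 genes of red blood cells were followed in punches of the caudate putamen (CPu), the dorsal part of the striatum. They were the alpha globin genes Hba-a1 and Hba-a2, the adult beta globin genes Hbb-bs and Hbb-bt, and Alas2, 5 of the 52636 genes in the table. The genes were chosen by their measured levels, since the blood signal had been seen to differ among the WT groups and under imipramine (IMN), a tricyclic antidepressant. Their differences between groups are therefore given as a description, without a test. Values are TPM, in which the abundance of a gene is divided by its transcript length and all genes of a mouse add up to the same total. TPM does not keep the number of reads of a mouse, for which the study's methods give only a minimum. Errors therefore come from the spread between libraries, in which differences between mice and the sampling of reads are not separated. Standard errors of log2 differences are moderated, that is, the spread of each gene is drawn toward a trend over all genes.

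The punches came from 31 female mice, 8 to 11 weeks old, all labelled with the strain name C57BL/6NTac-Brd1, WT mice included. Saline vehicle was given to 8 WT and 7 Brd1+/- mice, and IMN (10 mg/kg, subcutaneous) to 8 mice of each genotype. The Brd1+/- mice were of 1 line and carried a targeted deletion in 1 of their alleles of Brd1, which encodes a scaffold protein of histone acetyltransferase complexes. All mice had been injected and put through tests of behavior, the swim test among them, before sacrifice, also those administered vehicle, and brains were frozen before punching. Whether blood was washed out of the vessels before freezing was not given in the sources used here. Brd1 itself averaged 22.5 ± 2.97 TPM in WT vehicle, 13.4 ± 2.02 TPM in Brd1+/- vehicle, 19.9 ± 2.67 TPM in WT IMN and 12.75 ± 1.04 TPM in Brd1+/- IMN mice (SD, n = 8, 7, 8 and 8). Summed TPM of 4 Y-linked genes was 26.8 in WT vehicle mouse 7 and at most 0.188 in each of the other mice, which goes against the label of that library as female, while its Xist, at 79.2 TPM, was close to the lowest of the others (81.4 TPM). Without that mouse the mean globin difference given further on was −0.49 in place of −0.53 for IMN against vehicle in WT mice and 0.15 in place of 0.11 for genotype under vehicle.

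Hemoglobin, the oxygen carrier of red blood cells, is made of alpha and beta globin chains, each of which holds a heme group. Alas2 encodes the erythroid enzyme of the first step of heme synthesis, which other tissues perform with its relative Alas1. Circulating mouse reticulocytes, the young red cells that still hold RNA, carry much globin RNA, and globin transcripts in brain tissue are therefore often read as a sign of blood in the vessels of the sample. Low globin expression in neurons and glia has also been described. In tissue RNA of this kind, fewer cells of a type and less RNA per cell cannot be told apart.

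The globin genes of each kind are near-identical copies, which bears on how far their values can be read apart. On GRCm38 (GENCODE M21), Hba-a1 lies at chr11:32283511-32284465 and Hba-a2 at chr11:32296489-32297298 on the plus strand, and Hbb-bs at chr7:103826534-103828096 and Hbb-bt at chr7:103812524-103813996 on the minus strand. Alas2 lies at chrX:150547375-150570638 on the plus strand. The coding sequences of both alpha genes have 429 bases and differ at 1 of them, C381T from Hba-a1 to Hba-a2, and those of the beta genes have 444 bases and differ at 1, C417T from Hbb-bs to Hbb-bt, with positions counted from the first base of the start codon. Both changes are at the third base of a codon. The stretches around the changed base, in lower case with a capital only at that base, show how little of the coding sequence tells the copies apart.
Hba-a1: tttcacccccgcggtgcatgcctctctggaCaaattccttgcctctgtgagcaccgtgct
Hba-a2: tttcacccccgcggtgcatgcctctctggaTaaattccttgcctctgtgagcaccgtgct
Hbb-bs: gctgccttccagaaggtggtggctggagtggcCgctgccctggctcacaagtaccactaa
Hbb-bt: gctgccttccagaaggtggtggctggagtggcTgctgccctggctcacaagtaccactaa

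Reads of this series were 50 bases long. Of the 380 stretches of that length in an alpha coding sequence, 331 (87.1%) were the same in both genes, and of the 395 in a beta coding sequence, 367 (92.9%) were. Over the whole GENCODE transcripts, UTRs included, 67.5% of such stretches in Hba-a1 were also in Hba-a2 and 86.9% the other way, and 65.8% of those in Hbb-bs were also in Hbb-bt and 58.3% the other way. No stretch was shared between an alpha and a beta gene. The level of each single copy is thus uncertain, since reads from shared stretches can be assigned to either, and the sums of the alpha and of the beta genes are the firmer values.

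The members also share letters before their transcript starts, as RefSeq gives them on GRCm38.p6, where all 5 were matched. The 250 bases before each start were searched on both strands for 4 motifs known from erythroid promoters. The GATA motif was searched as AGATAA or TGATAA, the CACCC box and the CCAAT box by the letters of their names, and the TATA box as TATAAA or TATAAG or in the close forms CATAAA and CATAAG. A match to the first was found before Hba-a1, Hba-a2, Hbb-bs and Alas2 and in 16.6% of 32851 promoter windows of that length, and CACCC was found before all 5 genes and in 52.0% of windows. CCAAT was found before the 4 globin genes and in 33.8% of windows, and the TATA letters before all 5 genes and in 29.2%. Hba-a1, Hba-a2 and Hbb-bs held all 4 motifs, as did 0.9% of windows. In the globin genes the TATA letters began 27 to 30 bases before the start, and before Alas2 they began 207 and 209 bases away. These matches are a description of the letters and not of binding. Upstream sequence follows with motif letters in capitals, for Hba-a2 over chr11:32296242-32296491, for Hbb-bs over chr7:103827929-103828038 (minus strand), for Hbb-bt over chr7:103813967-103814073 (minus strand) and for Alas2 over chrX:150547297-150547404. That of Hba-a1 is not shown, since 247 of 247 bases were identical to those of Hba-a2 once shifted by 3 bases. These stretches lie before the RefSeq starts, and GENCODE places some transcript starts farther out. Of the printed bases, 3 for Hba-a2, 27 for Hbb-bs, 30 for Hbb-bt and 30 for Alas2 are annotated as UTR, the whole Hbb-bs stretch lies within the GENCODE span of that gene, and the CACCC matches of Alas2 lie past its GENCODE start. In Hbb-bt a reverse and a forward match to CCAAT lie next to each other, and in Alas2 the CACCC matches are 3 adjoining ones on the reverse strand and the GATA match is on the reverse strand too. Some matches lie outside the printed stretches. These are the GATA match of Hbb-bs, 210 bases before its start, and both matches to the TATA letters of Alas2. In Hbb-bt they are the TATA letters and a CCAAT match, 28 and 36 bases before its start.
Hba-a2: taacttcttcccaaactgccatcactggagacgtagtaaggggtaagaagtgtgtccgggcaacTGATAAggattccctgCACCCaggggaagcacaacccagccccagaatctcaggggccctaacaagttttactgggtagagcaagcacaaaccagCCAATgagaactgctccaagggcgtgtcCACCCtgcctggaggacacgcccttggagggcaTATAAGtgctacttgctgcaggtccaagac
Hbb-bs: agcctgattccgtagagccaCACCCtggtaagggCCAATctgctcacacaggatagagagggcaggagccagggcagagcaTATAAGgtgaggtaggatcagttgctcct
Hbb-bt: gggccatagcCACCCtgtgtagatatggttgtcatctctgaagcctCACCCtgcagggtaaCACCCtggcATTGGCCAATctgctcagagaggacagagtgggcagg
Alas2: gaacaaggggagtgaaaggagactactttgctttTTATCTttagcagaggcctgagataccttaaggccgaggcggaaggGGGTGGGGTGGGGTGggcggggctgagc

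All 4 globin genes were above 0 in each of the 31 mice. Their mean levels over all mice were 97.8 ± 30.9 TPM for Hba-a2, 84.1 ± 26.4 TPM for Hba-a1, 73.5 ± 24.1 TPM for Hbb-bs and 49.5 ± 18.0 TPM for Hbb-bt (SD, n = 31), at ranks 1166, 1437, 1695 and 2714 by mean TPM of the 34905 genes above 0. Alas2 was far lower, at 1.13 ± 0.719 TPM (SD, n = 31) and rank 17030, and was listed at 0 in WT IMN mice 6 and 8. The sum of the globin genes lay between 163 and 543 TPM, that is 0.0163% to 0.0543% of all TPM in a mouse.

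**Figure D1:**
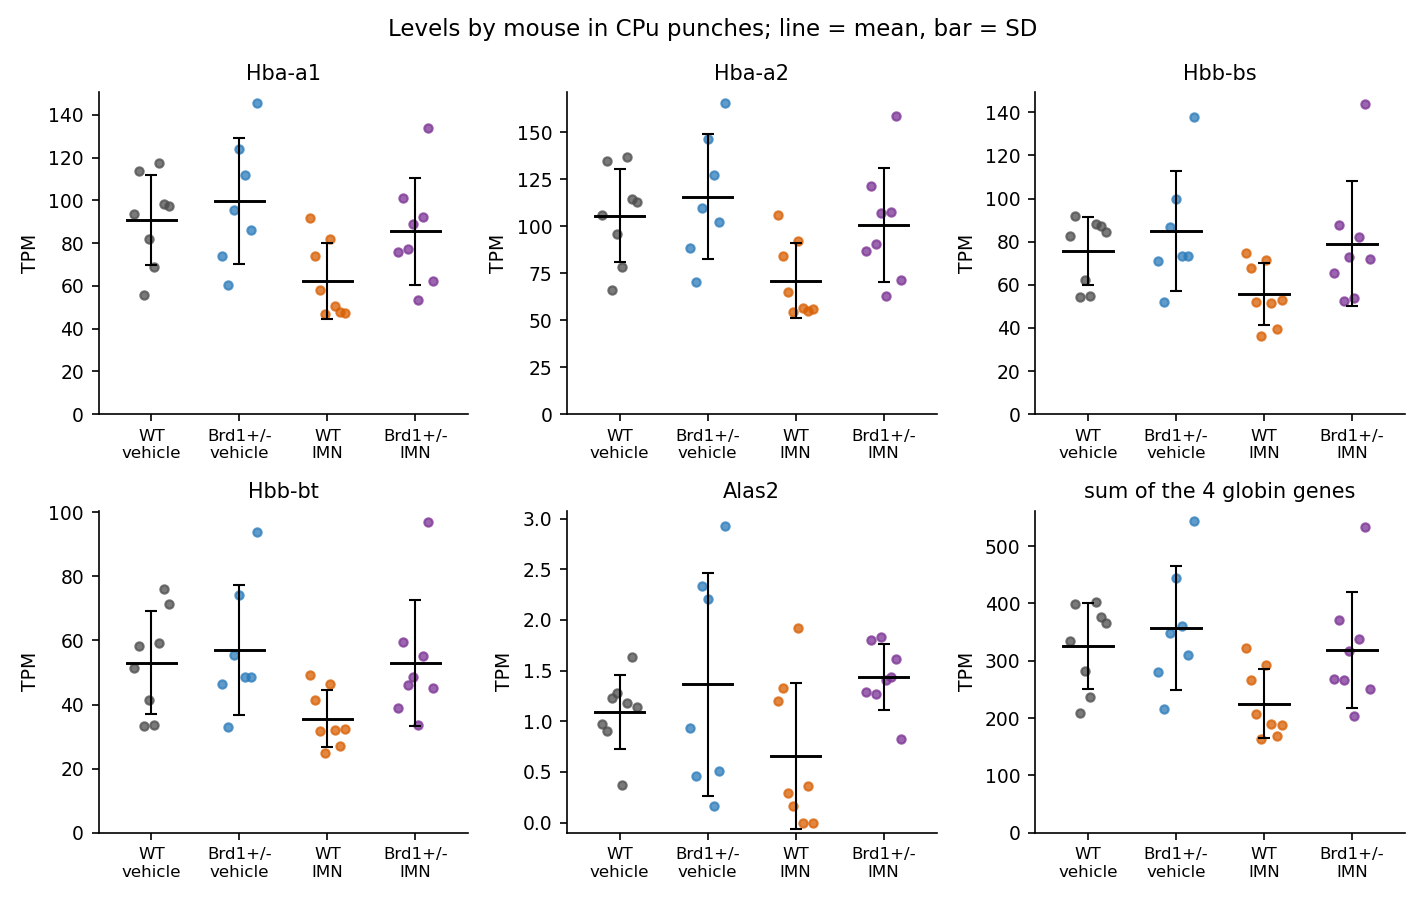
Level in TPM of Hba-a1, Hba-a2, Hbb-bs, Hbb-bt, Alas2 and the sum of the 4 globin genes (vertical axes) in each mouse of the 4 groups (horizontal axis), with the mean (line) and SD (bar). WT IMN mice are the lowest group in every panel, with a mean globin sum of 225 TPM, and the range of each group overlaps that of the others.

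WT mice administered IMN had the lowest mean of all 5 genes. The globin sum had a lowest, median and highest value of 163, 199 and 321 TPM in WT IMN mice, against 209.7, 349.8 and 402 TPM in WT vehicle mice. The values were 216, 348 and 543 TPM in Brd1+/- vehicle mice and 204, 292 and 533 TPM in Brd1+/- IMN mice. Each of the 8 WT IMN mice lay below the median of the WT vehicle mice, and all 4 ranges overlapped. Mean sums were 225 ± 60.2, 318 ± 102, 325 ± 74.4 and 358 ± 108 TPM (SD, n = 8, 8, 8 and 7) for WT IMN, Brd1+/- IMN, WT vehicle and Brd1+/- vehicle mice, from lowest to highest, and no neighbours in this order were apart by more than their ranges. The 2 highest mice were mouse 7 of the Brd1+/- vehicle group and mouse 7 of the Brd1+/- IMN group.

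The alpha genes followed the sum. Hba-a1 had a lowest, median and highest level of 55.5, 95.4 and 118 TPM in WT vehicle, 60.4, 95.4 and 146 TPM in Brd1+/- vehicle, 47.05, 54.25 and 91.6 TPM in WT IMN and 53.4, 82.9 and 134 TPM in Brd1+/- IMN mice. For Hba-a2 the levels were 66.3, 109.5 and 137 TPM, 70.4, 109.8 and 166 TPM, 54.4, 60.8 and 106 TPM, and 62.7, 98.85 and 159 TPM in the same order. In both genes 4 of the 8 WT IMN mice lay below the lowest Brd1+/- IMN mouse, and the remaining 4 overlapped with that group. In none of the groups was Hba-a1 above Hba-a2 on average.

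Of the beta genes, Hbb-bs had the higher level. Its lowest, median and highest levels were 54.5, 83.6 and 91.9 TPM in WT vehicle, 51.95, 73.5 and 138 TPM in Brd1+/- vehicle, 36.5, 52.5 and 74.7 TPM in WT IMN and 52.65, 72.6 and 144 TPM in Brd1+/- IMN mice. Hbb-bt had levels of 33.4, 54.9 and 76.0 TPM, 33.1, 48.6 and 93.8 TPM, 25.0, 32.1 and 49.3 TPM, and 33.8, 47.3 and 96.9 TPM in the same order. All 8 Brd1+/- IMN mice were above the WT IMN median for both genes, and 4 WT IMN mice for Hbb-bs and 5 for Hbb-bt lay below every Brd1+/- IMN mouse.

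Alas2 varied more than the globin genes within 3 of the 4 groups, with a coefficient of variation of 33.4% in WT vehicle, 80.6% in Brd1+/- vehicle and 110.2% in WT IMN mice, and less than they did in Brd1+/- IMN mice (22.7%). It had a lowest, median and highest level of 0.371, 1.16 and 1.63 TPM in WT vehicle mice and of 0.169, 0.935 and 2.93 TPM in Brd1+/- vehicle mice. In WT IMN mice it was 0, 0.326 and 1.92 TPM, with 5 of 8 mice below every Brd1+/- IMN mouse, whose levels were 0.824, 1.43 and 1.83 TPM. The WT IMN mice fell apart into 5 mice at or below 0.358 TPM and 3 mice, numbers 1, 2 and 5, above 1 TPM, and these 3 also had the 3 highest globin sums of their group. At levels near 1 TPM, and with the reads of each mouse not known, a value of 0 does not show absence.

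The first comparison asked how IMN differed from vehicle in WT mice. Differences in mean log2(TPM + 1), which understate the change of a low gene such as Alas2, were −0.55 (SE 0.17) for Hba-a1, −0.57 (SE 0.17) for Hba-a2, −0.45 (SE 0.16) for Hbb-bs, −0.54 (SE 0.19) for Hbb-bt and −0.43 (SE 0.22) for Alas2. The mean globin sum under IMN was 69.1% of that under vehicle. Over all 23579 genes tested with limma in this comparison, 1.35% were called higher and 5.6% lower at p under 0.01, and the median difference was −0.08. Since the genes were chosen on this contrast, nothing is read from those shares for them. With TPM scaled between mice by the median of ratios, which brought the median of all genes to 0.00, the differences of the globin genes were −0.45 to −0.32, that of Alas2 was −0.37, and the globin sum was 74.75% of that under vehicle, with 7 of 8 IMN mice below the vehicle median.

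Genotype under IMN gave the opposite sign, with the WT IMN mice as the lower group. Brd1+/- mice were higher than WT mice by 0.45 (SE 0.18) for Hba-a1, 0.49 (SE 0.18) for Hba-a2, 0.47 (SE 0.19) for Hbb-bs, 0.53 (SE 0.19) for Hbb-bt and 0.66 (SE 0.21) for Alas2 on the log2 scale. The mean globin sum was 1.42 times and mean Alas2 2.19 times that of the WT IMN mice. Background shares in this comparison were 0.189% of 23339 genes called higher and 0.514% lower, and the median difference was −0.03. This comparison and the preceding one share the WT IMN mice, so that a low level in those mice enters both.

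The remaining pairs differed by less than the spread between mice. Under vehicle, Brd1+/- mice differed from WT mice by 0.11 (SE 0.19), 0.12 (SE 0.19), 0.13 (SE 0.18) and 0.09 (SE 0.22) for Hba-a1, Hba-a2, Hbb-bs and Hbb-bt, and by 0.06 (SE 0.24) for Alas2, on the log2 scale. The shares of all 23200 genes called were 1.47% higher and 12.1% lower, with a median of −0.13, and after median-of-ratios scaling the differences of the globin genes were 0.28 to 0.32. In Brd1+/- mice, IMN against vehicle gave −0.21 (SE 0.20), −0.20 (SE 0.20), −0.11 (SE 0.21) and −0.10 (SE 0.22) for the globin genes and 0.17 (SE 0.23) for Alas2, where 0.869% of 23020 genes were called higher and 0.964% lower. Without Brd1+/- vehicle mouse 7, which held the highest globin sum, the mean difference of the globin genes was 0.00 for genotype under vehicle and −0.05 for IMN in Brd1+/- mice.

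Whether the difference under IMN was itself different between the genotypes was estimated as a genotype by treatment interaction in a fit of the 31 mice. It was 0.33 (SE 0.27) for Hba-a1, 0.37 (SE 0.27) for Hba-a2, 0.33 (SE 0.27) for Hbb-bs, 0.44 (SE 0.30) for Hbb-bt and 0.60 (SE 0.33) for Alas2. All 5 were positive and each was under 2 times its standard error, and after median-of-ratios scaling those of the globin genes were 0.19 to 0.30. Without Brd1+/- IMN mouse 7 the mean of the globin genes was 0.25, and without Brd1+/- vehicle mouse 7 it was 0.48. In this fit 2.97% of 25394 genes were called higher and 0.78% lower at p under 0.01.

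**Figure D2:**
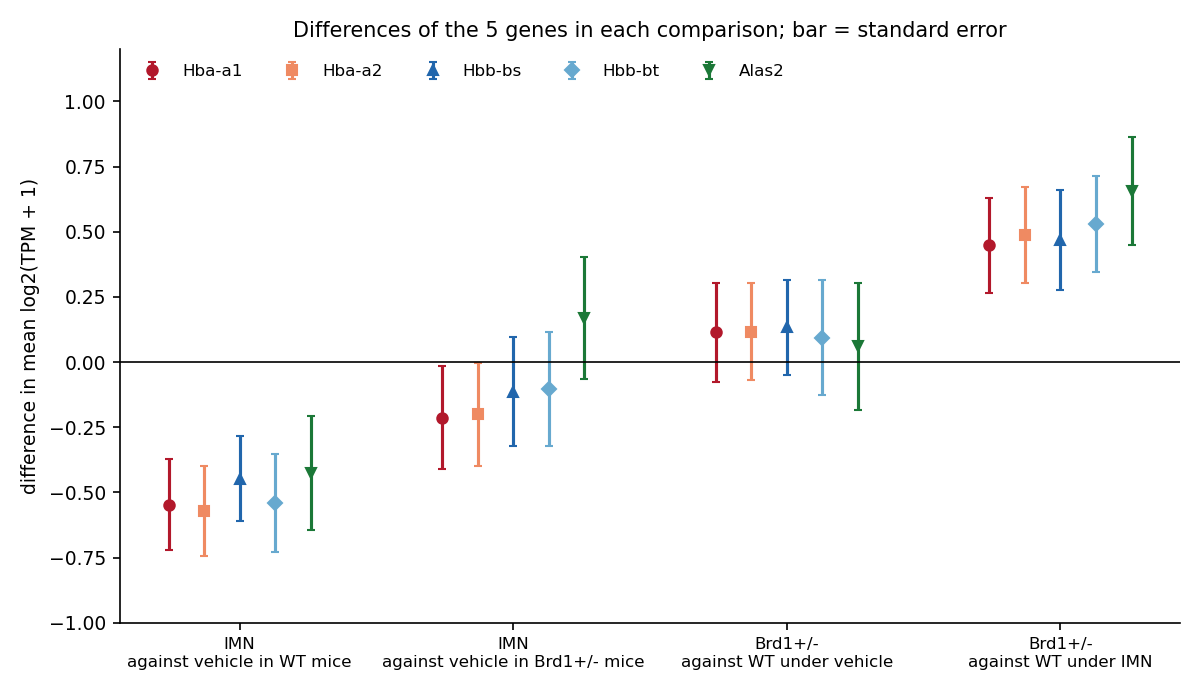
Difference in mean log2(TPM + 1) with its standard error (vertical axis) for each of the 5 genes in the 4 comparisons (horizontal axis). The 5 values lie between −0.57 and −0.43 for IMN against vehicle in WT mice and between 0.45 and 0.66 for genotype under IMN, and the other pairs lie nearer to 0.

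WT vehicle punches differed from the other groups in genes that mark cortical and striatal neurons. The summed TPM of 10 genes of cortical excitatory neurons had a median of 1443 TPM in WT vehicle mice, with a range of 113 to 1974 TPM, and medians of 228, 169 and 212 TPM in the Brd1+/- vehicle, WT IMN and Brd1+/- IMN mice. For 10 genes of striatal projection neurons the medians were 4117 TPM in WT vehicle mice, in a range of 292.5 to 10800 TPM, and 9777, 9033 and 8122 TPM in the others. Only mice 6 and 8 of the WT vehicle group had a cortical sum below 900 TPM, at 123 and 113 TPM, and their globin sums of 402 and 366 TPM were above that of each WT IMN mouse. WT IMN mouse 5 was the only mouse outside that group above 900 TPM. With the 7 mice above 900 TPM left out, a limit chosen after the sums were seen, the mean globin difference of IMN against vehicle in WT mice was −0.86 in place of −0.53, from 2 and 7 mice. That of genotype under vehicle turned from 0.11 to −0.16 and that of genotype under IMN was 0.54 in place of 0.48. The mean interaction of the globin genes was 0.70 in place of 0.37, again with 2 WT vehicle mice. Over all mice the globin mean had a Pearson r of 0.135 with the cortical and of −0.147 with the striatal list, and of −0.04 and 0.05 after median-of-ratios scaling. Within groups the r with the cortical list was −0.367 in WT vehicle, −0.34 in Brd1+/- vehicle, 0.552 in WT IMN and 0.537 in Brd1+/- IMN mice.

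**Figure D3:**
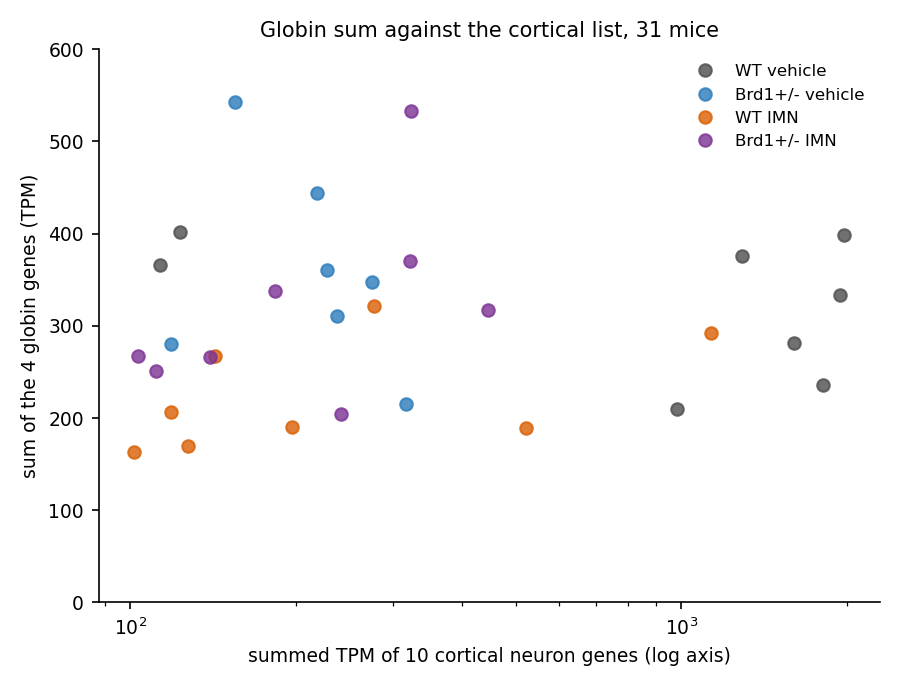
Sum of the 4 globin genes in TPM (vertical axis) against the summed TPM of 10 cortical neuron genes on a log axis (horizontal axis), 1 point per mouse, colored by group. Of the WT vehicle mice, 6 lie at the right, and the mice 6 and 8 of that group, at 123 and 113 TPM on the horizontal axis, have globin sums of 402 and 366 TPM.

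The balance among the globin genes was steadier than their level, while that of Alas2 to the globin genes was not. The ratio of alpha to beta TPM was 1.54 ± 0.176 (SD, n = 8) in WT vehicle, 1.54 ± 0.203 (SD, n = 7) in Brd1+/- vehicle, 1.46 ± 0.148 (SD, n = 8) in WT IMN and 1.44 ± 0.197 (SD, n = 8) in Brd1+/- IMN mice. Its coefficient of variation over all mice was 11.9%, against 31.8% for the globin sum and 55.45% for Alas2 per globin TPM. In Brd1+/- vehicle mouse 5 the ratio was 1.96, where the others of the group lay between 1.34 and 1.55, and this mouse had the lowest Alas2 of its group, 0.169 TPM, at a globin sum of 361 TPM. Hba-a2 held 53.7 ± 0.518% of the alpha TPM (SD, n = 31), in a range of 52.75% to 54.6%. With 87.1% of the coding stretches shared, a near constant share can come from how reads were divided as well as from the RNA, and this was not tested.

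The share of Hbb-bt in the beta TPM was 40.0 ± 2.39% (SD, n = 31), and 3 mice stood apart from the rest. It was 46.5% in WT vehicle mouse 7, 45.7% in WT vehicle mouse 8 and 46.6% in Brd1+/- IMN mouse 3, and 42.6% in Brd1+/- vehicle mouse 4. In each of the other 27 mice it lay between 37.2% and 40.7%. The Hbb-bt levels of WT vehicle mice 7 and 8, 76.0 and 71.25 TPM, were the highest of their group, while their Hbb-bs levels of 87.4 and 84.5 TPM were within the range of the other mice. WT vehicle mouse 7 was also the library with Y-linked transcripts, which were near 0 in the other 2 mice.

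**Figure D4:**
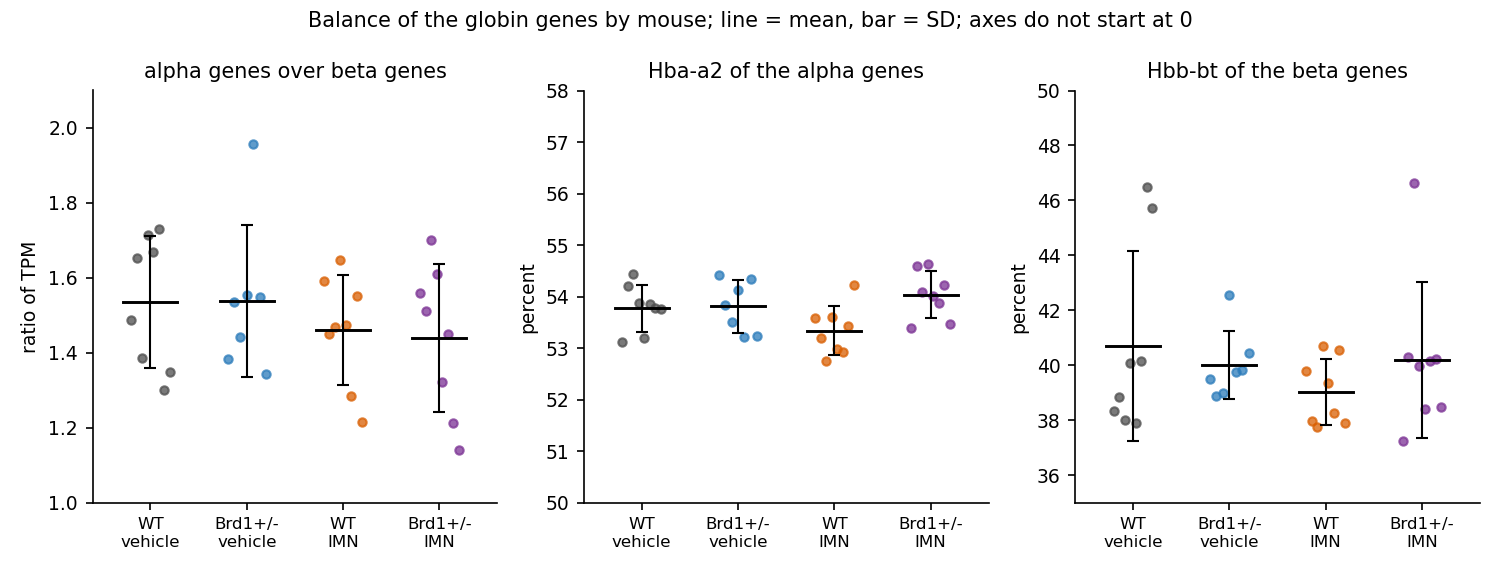
Ratio of alpha to beta globin TPM, percent of Hba-a2 in the alpha TPM and percent of Hbb-bt in the beta TPM (vertical axes, not starting at 0) in each mouse of the 4 groups, with the mean (line) and SD (bar). Hba-a2 stays between 52.75% and 54.6%, whereas Hbb-bt is above 45% in 3 mice and between 37.2% and 42.6% in the others.

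Levels of the genes moved together from mouse to mouse. On log2(TPM + 1) over 31 mice, Pearson r was 0.998 between Hba-a1 and Hba-a2 and 0.959 between Hbb-bs and Hbb-bt, whose values share reads, and between 0.916 and 0.927 for an alpha with a beta gene, which share no stretch of read length. Alas2 had an r of 0.685 and a Spearman rho of 0.597 with the mean of the globin genes. With each value centered on its group mean r was 0.621, so that the relation was not only between groups, and without the mice farthest from the median (mouse 7 of the Brd1+/- vehicle and of the Brd1+/- IMN group) it was 0.637. Within the groups it was 0.378 in WT vehicle, 0.711 in Brd1+/- vehicle, 0.864 in WT IMN and 0.504 in Brd1+/- IMN mice. Because the genes were chosen together on these mice, the correlations carry no p, and the points share a library each.

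**Figure D5:**
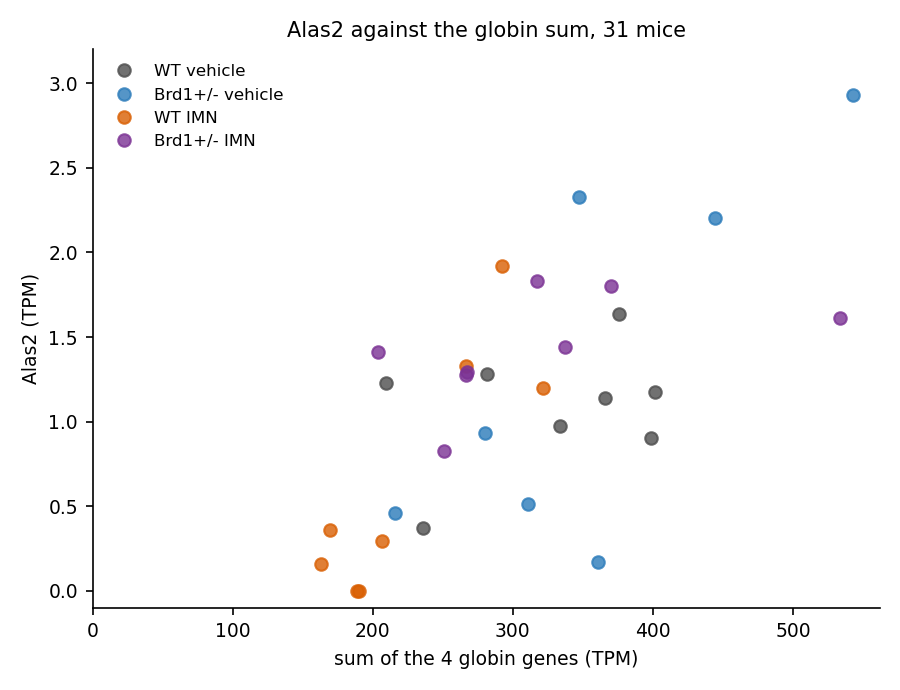
Alas2 in TPM (vertical axis) against the sum of the 4 globin genes in TPM (horizontal axis), 1 point per mouse, colored by group. Mice with more globin RNA tend to have more Alas2 (Pearson r of 0.685 on the log2 scale, n = 31), the WT IMN mice listed at 0 have globin sums of 190.5 and 189 TPM, and Brd1+/- vehicle mouse 5 lies low at a globin sum of 361 TPM.

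Among 17386 genes with a mean of at least 1 TPM, those most like the globin mean over the 31 mice were Cops4 (r of 0.598), a subunit of the COP9 signalosome, Ndufb2 (0.571), a subunit of respiratory complex I, and Slc38a3 (0.566), an amino acid transporter. Next came Gm15148 (0.566), Hspe1-ps2 (0.562), Vtn (0.551), which encodes vitronectin and is high in brain pericytes, Gm26672 (0.542), 4930506C21Rik (0.54), Igfbp7 (0.527), a gene of blood vessel cells, and Ttc39aos1 (0.526). Only 17 genes had an r above 0.5 and 0 had an r above 0.7, and the highest r, 0.598, was below the 0.685 of Alas2 on these values. By Spearman rho the order was the other way, with 0.621 for Cops4 and 0.606 for Ndufb2 against 0.597 for Alas2. With values centered on their group mean, the order by r turned too, as Ndufb2 (0.694) was above Alas2 (0.621), and Vtn and Igfbp7 were at ranks 256 and 376, whereas after median-of-ratios scaling they were at ranks 5 and 7.

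Of 59 genes in 5 lists of embryonic and other globins, heme synthesis, red cell membrane, red cell enzymes and erythroid regulators, 40 were above 0.1 TPM in at least 7 mice, and 10 were at 0 in all 31. Among those at 0 were the embryonic and fetal type globins Hba-x, Hbb-bh0, Hbb-bh1 and Hbb-bh2, the membrane genes Rhag and Kel, and the erythroid transcription factors Gata1 and Gfi1b. Slc4a1, the red cell anion exchanger, was above 0 in 1 mouse, at 0.163 TPM, and Klf1, a regulator of beta globin, in 7 mice at up to 0.294 TPM. Hbq1a and Hbq1b, the theta globin genes, were above 0 in 5 and 6 mice and Hbb-y in 2, none above 1.22 TPM. Alas1, the form of the enzyme that other tissues use, was at 28.5 to 53.3 TPM in every mouse.

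Genes of the lists that were measured throughout are mostly ones that brain cells also express, such as Prdx2, Car2, Epb41, Add2, Tmod1 and Sptb, with mean levels of 144, 118.5, 60.1, 73.2, 66.5 and 42.2 TPM. The relation of their list means to the globin mean differed between groups. Pearson r over all mice was −0.02 for heme synthesis, −0.233 for red cell membrane, 0.246 for red cell enzymes and reticulocyte transcripts and −0.108 for erythroid regulators, and after median-of-ratios scaling it was −0.03, −0.03, 0.33 and 0.10, so that the sign of the last turned. Within Brd1+/- vehicle mice (n = 7) r was 0.818 for red cell membrane, 0.802 for erythroid regulators and 0.693 for red cell enzymes. Within WT IMN mice (n = 8) it was −0.638, −0.633 and 0.386 for the same lists, in WT vehicle mice (n = 8) −0.133, −0.346 and −0.257, and in Brd1+/- IMN mice (n = 8) −0.57, −0.378 and 0.675. For other cells of the blood or of vessels it was 0.391 for leukocytes, −0.179 for platelets, 0.052 for endothelium and 0.295 for mural cells. Without the 2 mice farthest from the median it was 0.258, −0.239, −0.157 and 0.0865, and after median-of-ratios scaling 0.306, −0.132, 0.244 and 0.41. Within groups it ran from −0.163 (WT vehicle) to 0.838 (Brd1+/- IMN) for leukocytes, from −0.802 (WT IMN) to 0.342 (Brd1+/- vehicle) for platelets, from −0.475 (Brd1+/- vehicle) to 0.471 (Brd1+/- IMN) for endothelium and from −0.505 (WT IMN) to 0.674 (Brd1+/- vehicle) for mural cells. The leukocyte list was nearly empty, with 6 of 14 genes at 0 in all mice (Ngp, Camp, Ltf, Retnlg, Cd3e and Nkg7) and a summed median of 0.284, 0.236, 0.152 and 0.143 TPM in WT vehicle, Brd1+/- vehicle, WT IMN and Brd1+/- IMN mice. Its highest sums, 16.3 TPM in a WT IMN and 13.8 TPM in a WT vehicle mouse, came with Ly6c2, which was above 0 in 2 mice. Ly6c2 did not enter the r of this list, which rested on Cd79a and Cd79b, the 2 genes above 0.1 TPM in at least 7 mice. Their means were 0.116 and 0.0438 TPM, with 16 and 23 mice at 0, so that r is of little weight. The 10 endothelial genes had summed medians of 186, 191, 194 and 199 TPM in the same order of groups, and were not lowest in the WT IMN mice. Medians of the mural cell list were 130.5, 151, 129.5 and 133 TPM and those of the platelet list 24.8, 25.0, 21.1 and 22.0 TPM in that order, so that both were lowest in WT IMN mice, by less than the ranges of the groups. Most of the platelet sum was 1 gene, Gp1bb, at a mean of 19.1 TPM over all mice. Pf4 averaged 0.28 TPM, Ppbp was above 0 in 1 mouse and Tubb1 was at 0 in all 31, so the sum says little about platelets. The part of these cells in the globin levels was not tested.

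Of the genes in the 5 red cell lists, 39 were tested in each of the 4 comparisons with limma, and 0 passed an FDR of 5%. For IMN against vehicle in WT mice, 9 of 39 were under p of 0.05, as were 23.1% of all genes. At p under 0.01, 0 were higher and 1 was lower (2.56%, beside 1.35% higher and 5.6% lower over all genes), Ube2o, a ubiquitin ligase of reticulocyte maturation that brain also expresses (a difference of −0.36, limma adjusted p = 0.141). Its level was 39.0 ± 3.65 TPM under IMN and 50.6 ± 8.31 TPM under vehicle (SD, n = 8 and 8). For genotype under IMN, limma called 0 in either direction at p under 0.01, beside 0.189% higher and 0.514% lower over all genes, and 4 at p under 0.05, beside 3.92% of all genes. Ube2o was lower in Brd1+/- mice under vehicle as well (a difference of −0.48, limma adjusted p = 0.0556) and its interaction was 0.48 (limma adjusted p = 0.261). IMN against vehicle in Brd1+/- mice gave 0 calls in these lists at p under 0.01 and 3 at p under 0.05, beside 7.09% of all genes.

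Under vehicle, 1 gene of the red cell lists was higher and 7 were lower in Brd1+/- than in WT mice, 2.56% and 17.95% of those tested, beside 1.47% and 12.1% of all genes, and 18 were under p of 0.05, beside 30.9% of all genes. Heme synthesis gave 3 of them, Slc25a38, a mitochondrial glycine carrier (−0.34, limma adjusted p = 0.0556), and the enzymes Alad (−0.42, adjusted p = 0.0658) and Urod (−0.34, adjusted p = 0.0734). Others were Tfrc, the transferrin receptor (−0.53, limma adjusted p = 0.0671), Ube2o and Ube2l6 (−0.76, adjusted p = 0.0572), and Sptb, beta spectrin, was higher (0.37, adjusted p = 0.0614). After median-of-ratios scaling, 3 were higher and 1 was lower, and of the lower genes only Ube2l6 held at p under 0.01, so the split of these calls depends on the scaling. All of them are also expressed outside red cells, and the cortical sum differed between the same groups, with medians of 1443 and 228 TPM; its part in these calls was not tested.

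Hemoglobin that leaves the red cell is bound by haptoglobin (Hp), its heme by hemopexin (Hpx), and the complexes are taken up by Cd163 on macrophages and by Lrp1, after which heme oxygenase (Hmox1, Hmox2) opens the ring. Of the 11 genes of this list 9 were tested, and Hp and Hpx were above 0 in 5 and 4 mice only. At p under 0.01, 1 of the 9 was higher and 0 lower for IMN in WT mice, beside 1.35% and 5.6% of all genes. Under vehicle, 1 was higher and 2 were lower in Brd1+/- mice, beside 1.47% and 12.1%. For the interaction 1 was higher and 0 lower, beside 2.97% and 0.78%. Cd163 was lowest in WT vehicle mice, at 2.23 ± 1.61 TPM (SD, n = 8), against 4.19 ± 0.653 (SD, n = 7), 4.40 ± 1.11 (SD, n = 8) and 4.72 ± 0.753 TPM (SD, n = 8) in Brd1+/- vehicle, WT IMN and Brd1+/- IMN mice. It was higher under IMN in WT mice (0.88, limma adjusted p = 0.141) and in Brd1+/- mice under vehicle (0.84, limma adjusted p = 0.0681). In both comparisons Cd163 was the only gene of the 9 with a positive difference, and the other 8 were negative. The medians of the list were −0.24 and −0.38, beside −0.08 and −0.13 over all genes. Hmox1, 4.58 ± 1.48 TPM in WT vehicle mice, was lower in Brd1+/- vehicle mice at 2.74 ± 0.662 TPM (SD, n = 8 and 7). The difference was −0.55 (limma adjusted p = 0.0602), and its interaction was 0.61 (limma adjusted p = 0.261). Slc48a1, a heme transporter, was lower under vehicle in Brd1+/- mice as well (−0.47, limma adjusted p = 0.0734). These calls all involve the WT vehicle mice, whose median cortical sum was 1443 TPM beside 169 to 228 TPM in the other groups, and the part of that tissue was not tested. Of the genes named in this list only Cd163 held at p under 0.01 after median-of-ratios scaling.

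Over all 16 lists, 4 of 123 genes were higher and 4 lower for IMN against vehicle in WT mice, 5 of 123 higher and 12 lower for genotype under vehicle, 0 of 122 for genotype under IMN, and 0 of 122 higher and 1 lower (Drd1) for IMN in Brd1+/- mice. These were 3.25% higher and 3.25% lower for IMN in WT mice, beside 1.35% and 5.6% of all genes, and 4.07% higher and 9.76% lower for genotype under vehicle, beside 1.47% and 12.1%, so the shares of higher calls were above and those of lower calls below the shares of all genes. The 0.82% lower for IMN in Brd1+/- mice stood beside 0.964%. The calls outside the red cell and clearance lists were Kl, Igf2 and Trem2 higher and Emx1, Cldn5 and Pf4 lower under IMN in WT mice, and Igf2, Trem2 and Penk higher and Fezf2, Emx1 and Gp9 lower in Brd1+/- mice under vehicle. Pf4 and Gp9 are platelet genes, at means of 0.585 and 0.630 TPM in WT vehicle mice, and Igf2 is a gene of meningeal and perivascular fibroblasts. Cldn5 went against most of the endothelial list, in which 7 genes were positive and 3 negative for IMN in WT mice. After median-of-ratios scaling 0 endothelial genes were called lower there. For the interaction, 3 of 129 genes were higher (Slc25a38, Hmox1 and Ube2o) and 3 lower (Igf2, Gpr34 and Epb41), 2.33% each, beside 2.97% and 0.78% of all genes. After median-of-ratios scaling the calls were 8 higher and 3 lower for IMN in WT mice, 18 higher and 3 lower for genotype under vehicle, and 1 higher and 7 lower for the interaction. The shares of all genes under that scaling were 2.83% higher and 3.18% lower, 3.88% and 5.31%, and 1.59% and 1.58%, in the same order. With the 7 mice of high cortical sum left out, 1 list gene was called for IMN in WT mice and 5 for genotype under vehicle. These fits held only 2 WT vehicle mice, and the share of all genes called in them was not computed, so nothing is read from the lower counts.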

How the data were processed

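RNA of the punches was read by the authors as 50 base single-end sequences (BGISEQ-500), aligned to GRCm38 with HISAT2 2.1.0 and quantified with StringTie 1.3.4, and the authors deposited TPM per Ensembl gene for 31 mice. Column totals ran from 999787 to 999918, 0 columns were unused, and the reads per mouse, of which the study gives a minimum only, cannot be had from TPM. GENCODE M21 named 52403 of 52636 identifiers. Groups and mouse numbers came from the labels, and replicates are separate mice.

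The 5 genes and all gene lists were chosen with earlier results of these data known, hence the members carry values without p. Pairs of groups were fitted with limma 3.58.1 (R 4.3.3) and a variance trend on log2(TPM + 1), keeping genes that exceeded 0.1 TPM in 7 or more of the mice in the fit. Tests were two-sided, called at p under 0.01, and adjusted p is Benjamini-Hochberg over all genes of a fit. The interaction used all 4 groups. The fit was tested on simulated data. The authors ran edgeR on counts, which TPM does not allow. Planned permutation p values for correlations of the globin mean were dropped, since the members were chosen on these mice.

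Named were the members, per list and comparison up to 4 genes of smallest p under 0.01, list genes at 0 or in no call, the 10 genes most alike by Pearson r, and Brd1 and Y-linked genes as label checks. Xist was added after its values were seen. Sequences came from GENCODE M21 and RefSeq (GRCm38.p6). Ahsp and protein sequences were not used here. Some genes of the lists, counted in the totals, are not reported here by name.

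As alternatives, the pseudocount was set to 0.1, low genes were filtered at a mean of 1 TPM or not at all, values were scaled by median of ratios or quantiles or rescaled without the members, and the trend was dropped. Fits with sample quality weights, with mouse number as a block and over all 4 groups, and fits leaving out each mouse, were also run. Added after seeing the data were the alternatives for the interaction and leaving out mice with much cortical tissue.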

Additional observations from a re-analysis of the deposited data

Results flagged for a closer look

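Of 36 sets of values tested for a mouse far from its group (5 genes, 3 ratios of the globin genes and Alas2 per globin TPM, in each of the 4 groups), 3 held one by Dixon's criterion at 95%, where chance gives about 1 in 20. The ratio of alpha to beta TPM was 1.958 in Brd1+/- vehicle mouse 5, above 1.343 to 1.554 in the other mice of the group. The share of Hbb-bt in the beta TPM was 42.57% in Brd1+/- vehicle mouse 4, above 38.9% to 40.46% in the others, and 46.64% in Brd1+/- IMN mouse 3, above 37.23% to 40.32%. In WT vehicle mice the shares of 46.5% and 45.74% in mice 7 and 8 were close to each other, and a pair of high mice is not picked up by this criterion. What sets these mice apart was not tested. No interaction of a list gene passed an FDR of 5%.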

How the results depend on the processing

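The mean globin difference moved by less than the spread between single mice (an SD of 0.394 on the log2 scale) under each of 39 other settings and 93 fits without 1 mouse, and its sign turned in 1, genotype under vehicle without the mice of high cortical sum (−0.16). Leaving out each mouse gave −0.61 to −0.47 for IMN in WT mice, 0.37 to 0.57 for genotype under IMN, 0.00 to 0.23 for genotype under vehicle, −0.27 to −0.05 for IMN in Brd1+/- mice and 0.25 to 0.48 for the interaction. Without the mice of high cortical sum the values for IMN in WT mice and the interaction were −0.86 and 0.70, resting on 2 WT vehicle mice, and these shifts from −0.53 and 0.37 were larger than the standard errors of the single globin genes. With a pseudocount of 0.1, the difference of Alas2 was −1.32 for IMN in WT mice, 1.73 for genotype under IMN and 1.80 for the interaction, as its low values weigh more on that scale.

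Counts of list genes called at p under 0.01 were less stable, and the cause was not tested. No share of all genes stands beside these counts or beside those with the mouse number as a block below. They show how far the calls moved, and not whether the lists moved more than other genes. For IMN in WT mice the 8 calls became 34 with sample quality weights, 20 with all 4 groups in one fit, 1 without the mice of high cortical sum, and 4 to 19 without 1 mouse (4 without WT IMN mouse 3, 5 without WT vehicle mouse 1 or 5, 18 and 19 without WT vehicle mouse 8 and 6). For genotype under vehicle the 17 became 46 with weights, 37 with all groups, 5 without the mice of high cortical sum and 8 to 30 without 1 mouse (28 and 30 without WT vehicle mouse 6 and 8, 8 to 11 without WT vehicle mouse 1, 2, 4, 5 or 7 or Brd1+/- vehicle mouse 1, 3, 4 or 5). For genotype under IMN the 0 became 1 with weights and without the mice of high cortical sum, and 0 to 1 without 1 mouse. For IMN in Brd1+/- mice the 1 became 2 with median-of-ratios scaling, without the trend and with weights, 5 with quantiles, 0 with all groups, and 0 to 3 without 1 mouse. For the interaction the 6 became 10 with quantiles, 32 with weights, 0 without the mice of high cortical sum, and 3 to 21 without 1 mouse (21 and 19 without WT vehicle mouse 6 and 8, 3 without WT vehicle mouse 1, Brd1+/- vehicle mouse 4 or WT IMN mouse 4).

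Mice of different groups shared only a number, and deviations of same-numbered mice had an r between −0.43 and 0.45. With the mouse number as a replicate block the list calls were 8 for IMN in WT mice, 0 for genotype under IMN, 26 for genotype under vehicle, 4 for IMN in Brd1+/- mice and 9 for the interaction, and the mean globin differences were −0.53, 0.48, 0.15, −0.12 and 0.38. Of the 64 alternative correlations of the globin mean, 8 moved by more than their standard error, among them endothelium (−0.16 without the 2 mice farthest from the median, 0.24 after median-of-ratios scaling). The reads per mouse, not kept by TPM, limit Alas2 and other genes near 1 TPM most.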
